A study of Arabidopsis thaliana with 12 samples.

Results

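The response of Arabidopsis roots to low phosphate (Pi) was measured in Col-0, the wild type of the Columbia ecotype, as the difference between seedlings grown without added Pi (–Pi) and with 1 mM Pi (+Pi). It rests on 6 of the 12 libraries of the series, 3 of Col-0 –Pi and 3 of Col-0 +Pi, and covers all 19802 genes of the expression table. Roots were harvested 7 days after sowing on agar plates, and each library pooled the roots of many seedlings, so the replicates are pools and not single plants. The –Pi plates kept a residual amount of Pi, and both media held the same iron. The +Pi plates received their Pi as a potassium phosphate buffer, so the Pi and the potassium that came with it cannot be told apart. The other 6 libraries are of CRR OE, a Col-0 line in which a CRR-GFP fusion protein is expressed ectopically, grown in the same media. They enter here only through the shared spread of the model and through the test of whether the –Pi effect differed between the lines.

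Plants take up Pi as an anion through PHT1 transporters in the outer root cells. When Pi is scarce, the transcription factor PHR1 and its relatives bind an 8-base element called P1BS in the promoters of Pi starvation genes. In replete plants SPX proteins, which sense inositol pyrophosphates, hold PHR1 back. A second arm runs through miR399, a microRNA that cleaves the transcript of PHO2, an enzyme that marks Pi transporters for degradation, while the non-coding transcripts IPS1 and AT4 sequester miR399. Plants also replace phospholipids by galactolipids and sulfolipids, secrete acid phosphatases, grow more root hairs and, in Arabidopsis, deposit iron in the cell walls of the root tip.

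The sequences that this pathway reads are shown first, since the results return to them. P1BS is GNATATNC, which is its own reverse complement, so a search of one strand covers both. It was searched from 250 bases before to 50 bases after the annotated start of each gene in the RefSeq genome of TAIR10.1, whose gene coordinates equal those of the deposited TAIR10 table for 99.99% of 19783 matched genes. Of the 15 DEGs with the highest log2 fold changes, among those with at least 1 log2 CPM in a group, 8 held the motif, 2 of them with 2 copies. For the 7 of these whose copies lie before the start, the stretches around it are printed 5′ to 3′ on the strand of the gene, with the motif in capitals, to show how the copies vary at their free positions. Coordinates are those of TAIR10.1.
*AT5G53048* (chr5:21509698-21509745, plus strand): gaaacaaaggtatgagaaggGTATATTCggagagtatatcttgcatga
*AT3G25240* (chr3:9192280-9192439, plus strand): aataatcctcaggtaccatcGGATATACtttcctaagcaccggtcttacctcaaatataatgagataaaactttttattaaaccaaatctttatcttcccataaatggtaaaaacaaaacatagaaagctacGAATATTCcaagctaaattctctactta
*SPX3* (chr2:18606177-18606347, plus strand): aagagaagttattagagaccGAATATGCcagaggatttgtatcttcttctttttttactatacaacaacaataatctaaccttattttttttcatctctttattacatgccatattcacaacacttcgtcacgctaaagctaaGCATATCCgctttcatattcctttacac
*PHT1;7* (chr3:20251045-20251092, minus strand): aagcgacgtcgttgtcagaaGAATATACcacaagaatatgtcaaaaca
*PHT1;2* (chr5:17415636-17415683, plus strand): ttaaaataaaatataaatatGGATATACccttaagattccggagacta
*AT2G08820* (chr2:15404083-15404130, minus strand): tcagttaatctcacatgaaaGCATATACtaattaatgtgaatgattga
*AT1G21529* (chr1:7544732-7544779, minus strand): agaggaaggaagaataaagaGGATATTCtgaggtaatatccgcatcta
The copies in *AT3G25240* lie 193 and 81 bases before the start and those in *SPX3* 213 and 90 bases before it. The copy of *PHT1;2* starts 42 bases before the gene, and that of *SPX1*, not printed, lies 23 bases inside the transcribed part.

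The miR399 family and its sites show the second arm. RefSeq annotates 6 mature forms with the same seed, the bases 2 to 8 that lead target pairing, which is printed in capitals.
miR399a: uGCCAAAGgagauuugcccug
miR399b and miR399c: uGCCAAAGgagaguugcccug
miR399d: uGCCAAAGgagauuugccccg
miR399e: uGCCAAAGgagauuugccucg
miR399f: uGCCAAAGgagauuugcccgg
The transcripts of *IPS1* and *AT4* each hold a single stretch that faces the seed and pairs with the best of these forms at 17 or more of 21 positions, and 4 such stretches of *PHO2* are given. Each stretch is printed as 24 bases in transcript sense, with the complement of the seed in capitals.
*IPS1* (chr3:3051224-3051247, plus strand): uugggcaacuucuaucCUUUGGCa
*AT4* (chr5:895149-895172, plus strand): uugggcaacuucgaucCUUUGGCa
*PHO2*, stretch 1 (chr2:14282106-14282129, minus strand): cuuuagggcaaaucuuCUUUGGCa
*PHO2*, stretch 2 (chr2:14281973-14281996, minus strand): uucuagggcauaucucCUUUGGCa
*PHO2*, stretch 3 (chr2:14281827-14281850, minus strand): uguucgagcaaaucucCUUUGGCa
*PHO2*, stretch 4 (chr2:14281770-14281793, minus strand): ucguagagcaaaucucCUUUGGCa
With a bulge of 3 bases across from the middle of the microRNA, 18 of 21 positions pair in *IPS1* and in *AT4*, and without one only 13 and 12. These *PHO2* stretches pair at 19 of 21 positions without a bulge, wobble pairs not counted. The miR399 precursors themselves have no value in the expression table used here.

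Large increases outnumbered large decreases in –Pi roots. A differentially expressed gene (DEG) has a log2 fold change (–Pi over +Pi) of 1 or more or of -1 or less and an adjusted p under 0.05 in the authors' limma model, with Benjamini-Hochberg adjustment over the 4 pairwise contrasts of the study. By this rule 758 genes were higher, 3.83% of those tested, and 374 were lower, 1.89%. These are the shares to set beside each count of DEGs in a list or family below. Of the higher DEGs 297 had a log2 fold change of at least 2 and 81 of at least 4, whereas 60 lower DEGs reached -2 and 5 reached -4. The median log2 fold change over all genes was -0.02. Higher DEGs made up 3.85% of the summed CPM, the reads of a gene scaled to a common library total, in –Pi roots and 1.13% in +Pi roots, and lower DEGs made up 0.300% in –Pi roots and 0.831% in +Pi roots. Levels are given as the authors' log2 CPM, a single mean of 3 libraries per group, and errors are standard errors (SE) of a log2 fold change recovered from the deposited tests. The SE covers the spread between pools of seedlings, which the labels do not tie to separate experiments. Its median was 0.09, from 0.07 above a level of 5 log2 CPM to 0.35 below 0, so low genes are known less precisely. Where a value with an SE has no unit beside it, it is the log2 fold change of –Pi over +Pi of that gene. Without a fold threshold the response was nearly even, with 2364 genes higher (11.9%) and 2240 lower (11.3%).

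**Figure D1:**
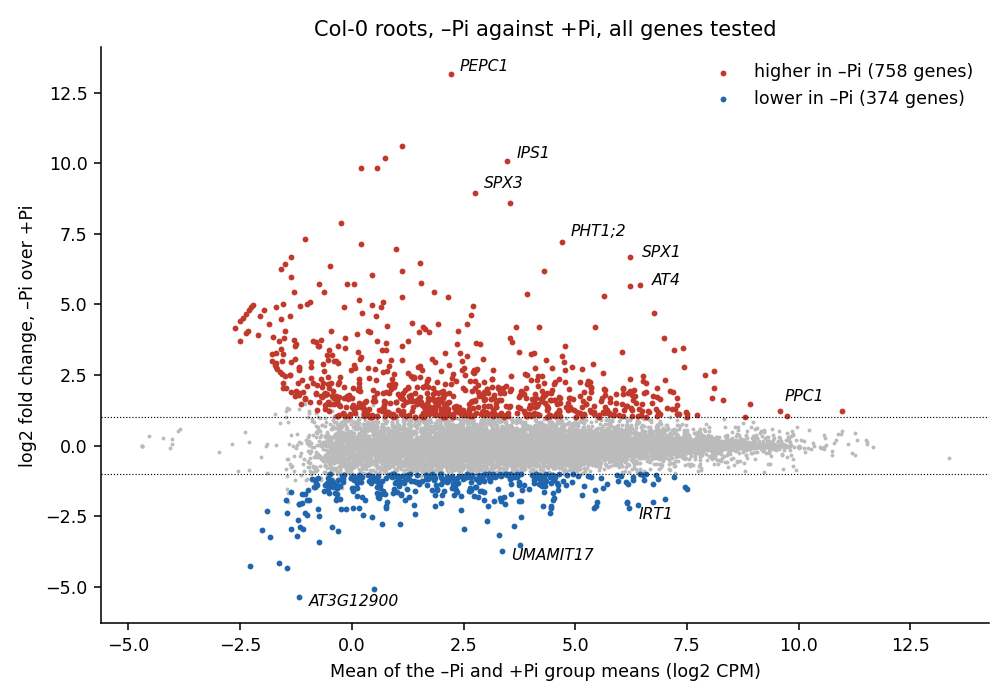
Each point is a gene of Col-0 roots, with the mean of its –Pi and +Pi levels in log2 CPM on the x axis and the log2 fold change of –Pi over +Pi on the y axis. The 758 higher DEGs in red reach 13.18 at *PEPC1*, whereas the 374 lower DEGs in blue end at -5.37, and dotted lines mark a log2 fold change of 1 and -1.

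The genes with the highest folds were nearly silent in +Pi roots. *PEPC1* (AT1G17710, chr1:6090405-6092027), a phosphatase of phosphoethanolamine and phosphocholine, had 8.81 log2 CPM in –Pi roots, against -4.38 in +Pi roots, a log2 fold change of 13.18 (SE 0.37, adjusted p = 1.30e-12). The +Pi value is close to the lowest of the table, -4.71 log2 CPM, so the size of this fold depends on the small count added before the logarithm, and with 1 CPM added it was 8.74. *AT5G53048*, a long non-coding RNA (chr5:21509861-21511850), had 6.43 log2 CPM in –Pi roots, against -4.18 in +Pi roots, and its log2 fold change of 10.61 (SE 0.31) became 6.37 with 1 CPM added. It overlaps *AT5G53050* on the opposite strand, which fell by 0.64 (SE 0.07) on the log2 scale, and whether reads were counted by strand is not given in the sources used here. *AT3G25240*, a protein of unknown function with 2 P1BS copies, had 5.84 log2 CPM in –Pi roots, against -4.35 in +Pi roots, a log2 fold change of 10.20 (SE 0.33) that became 5.80 with 1 CPM added. *OCT1*, an organic cation transporter, had 7.86 log2 CPM in –Pi roots, against -0.76 in +Pi roots, a log2 fold change of 8.61 (SE 0.16). *HOL2*, a methyltransferase that uses S-adenosylmethionine, had 5.13 log2 CPM in –Pi roots and was listed at the lowest value in +Pi roots, so no fold is given. These genes share near-absence in +Pi roots and clear expression in –Pi roots.

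Some of the strongest responders lie beside known Pi genes. *SPX3* (chr2:18606410-18607853) is followed on the same strand by *AT2G45135* (chr2:18608824-18610574), a RING/U-box protein with 5.47 log2 CPM in –Pi roots, against -4.35 in +Pi roots, a log2 fold change of 9.83 (SE 0.31) that became 5.44 with 1 CPM added. *AT2G34210*, annotated as a transcription elongation factor of the Spt family, starts 833 bases after the mature miR399f on the same strand and had 3.78 log2 CPM in –Pi roots, against -3.35 in +Pi roots, a log2 fold change of 7.13 (SE 0.50) that became 3.75. The non-coding genes *AT2G08820* and *AT1G21529* also stood among the 15 highest. *AT2G08820* had 4.46 log2 CPM in –Pi roots, against -2.49 in +Pi roots, a log2 fold change of 6.95 (SE 0.33) that became 4.29 with 1 CPM added, and *AT1G21529* had 1.98 log2 CPM in –Pi roots and the lowest value of the table in +Pi roots.

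The transporters that bring Pi into the root rose without exception among the measured members. All 9 tested genes of the Pi uptake list were higher DEGs, against 3.83% of all genes, with a median log2 fold change of 4.91, or 4.32 without the 2 members listed at the lowest value in +Pi roots. *PHT1;1*, a main Pi transporter of replete roots, had 9.65 log2 CPM in –Pi roots, against 8.17 in +Pi roots, a log2 fold change of 1.47 (SE 0.09, adjusted p = 7.36e-09). *PHT1;4*, which acts beside it in uptake, had 9.15 log2 CPM in –Pi roots, against 5.67 in +Pi roots, a log2 fold change of 3.48 (SE 0.08, adjusted p = 1.01e-13). *PHT1;2* had 8.32 log2 CPM in –Pi roots, against 1.08 in +Pi roots, a log2 fold change of 7.23 (SE 0.13, adjusted p = 7.71e-15). So all 3 rose, and the fold of *PHT1;1*, already high in +Pi roots, was the smallest of the 9. *PHT1;8* had 3.69 log2 CPM in –Pi roots, against -4.18 in +Pi roots, a log2 fold change of 7.88 (SE 0.39) that became 3.72 with 1 CPM added, and *PHT1;9*, its partner in root-to-shoot Pi transfer, had 4.09 log2 CPM in –Pi roots, against -0.24 in +Pi roots, a log2 fold change of 4.32 (SE 0.18). *PHT1;5*, which moves Pi between organs, had 2.91 log2 CPM in –Pi roots, against -2.83 in +Pi roots, a log2 fold change of 5.74 (SE 0.24) that became 2.90 with 1 CPM added. *PHT1;7* had 2.60 and *PHT1;3* had 0.20 log2 CPM in –Pi roots, and both were listed at the lowest value in +Pi roots. *PHF1*, which lets PHT1 proteins leave the endoplasmic reticulum, had 7.08 log2 CPM in –Pi roots, against 5.05 in +Pi roots, a log2 fold change of 2.03 (SE 0.08). *PHT1;1*, *PHT1;3* and *PHT1;2* stand in a row on chromosome 5 (17399769 to 17417972) and are close in sequence, so reads shared between them may be misassigned.

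Carriers inside the plant responded selectively. Of 18 tested genes for Pi export, vacuolar and organellar transport 4 were higher DEGs and 0 lower, against 3.83% and 1.89% of all genes. Of these 3 encode glycerol-3-phosphate permeases, *G3Pp3* with a log2 fold change of 5.46 (SE 0.18), *G3Pp1* with 3.82 (SE 0.09) and *G3Pp2* with 3.80 (SE 0.12). *G3Pp1* had 8.89 log2 CPM in –Pi roots, against 5.07 in +Pi roots. The fourth, *PHT3;2*, a mitochondrial Pi carrier, had 3.59 log2 CPM in –Pi roots, against 0.74 in +Pi roots, a log2 fold change of 2.85 (SE 0.11). The exporter *PHO1*, which loads Pi into the xylem, had 8.72 log2 CPM in –Pi roots, against 8.77 in +Pi roots, a log2 fold change of -0.05 (SE 0.07, adjusted p = 0.753), whereas its homologue *PHO1;H1* had a log2 fold change of 0.95 (SE 0.10, adjusted p = 1.05e-05) below the threshold. *AT1G63010*, which encodes a transporter with an SPX domain, had a log2 fold change of 0.73 (SE 0.07, adjusted p = 1.38e-06), also below the threshold, while *PHO1;H3* had -0.30 (SE 0.05, adjusted p = 8.64e-04).

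In the signalling list *SPX1*, *SPX2*, *SPX3* and the target mimics rose, while no upstream regulator was called higher. Of 16 tested genes 5 were higher DEGs and 0 lower, against 3.83% and 1.89% of all genes. *IPS1* (AT3G09922), whose miR399 stretch is printed above, had 8.53 log2 CPM in –Pi roots, against -1.57 in +Pi roots, a log2 fold change of 10.1 (SE 0.19, adjusted p = 7.73e-15). *AT4*, with the same stretch apart from a single base, had 9.30 log2 CPM in –Pi roots, against 3.61 in +Pi roots, a log2 fold change of 5.70 (SE 0.12, adjusted p = 2.83e-14). Both mimics rose, and that of *IPS1* was the larger fold of the pair. *SPX1* had 9.59 log2 CPM in –Pi roots, against 2.89 in +Pi roots, a log2 fold change of 6.70 (SE 0.06, adjusted p = 1.11e-18). *SPX3* had 7.22 log2 CPM in –Pi roots, against -1.72 in +Pi roots, a log2 fold change of 8.93 (SE 0.19, adjusted p = 2.98e-14). *SPX2* had 6.46 log2 CPM in –Pi roots, against 4.20 in +Pi roots, a log2 fold change of 2.25 (SE 0.09, adjusted p = 5.86e-11). *SPX4*, which acts on PHR1 in the cytosol, went the other way with 2.94 log2 CPM in –Pi roots, against 3.44 in +Pi roots, a log2 fold change of -0.49 (SE 0.11, adjusted p = 0.00564). *PHR1* itself had 5.72 log2 CPM in –Pi roots, against 5.88 in +Pi roots, a log2 fold change of -0.16 (SE 0.05, adjusted p = 0.0749), and its relative *PHL1* a log2 fold change of -0.25 (SE 0.06, adjusted p = 0.0184). *PHO2*, whose transcript carries the stretches shown above, had 7.87 log2 CPM in –Pi roots, against 8.53 in +Pi roots, a log2 fold change of -0.66 (SE 0.10, adjusted p = 2.41e-04). *NLA*, a ubiquitin ligase that also acts on Pi transporters and is a known target of another microRNA, miR827, had a log2 fold change of -0.39 (SE 0.09, adjusted p = 0.0066). These 4 decreases passed the test but not the fold threshold. *ITPK1* and *IPK1*, enzymes of inositol phosphate synthesis, had log2 fold changes of -0.01 (SE 0.06) and -0.02 (SE 0.09).

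**Figure D2:**
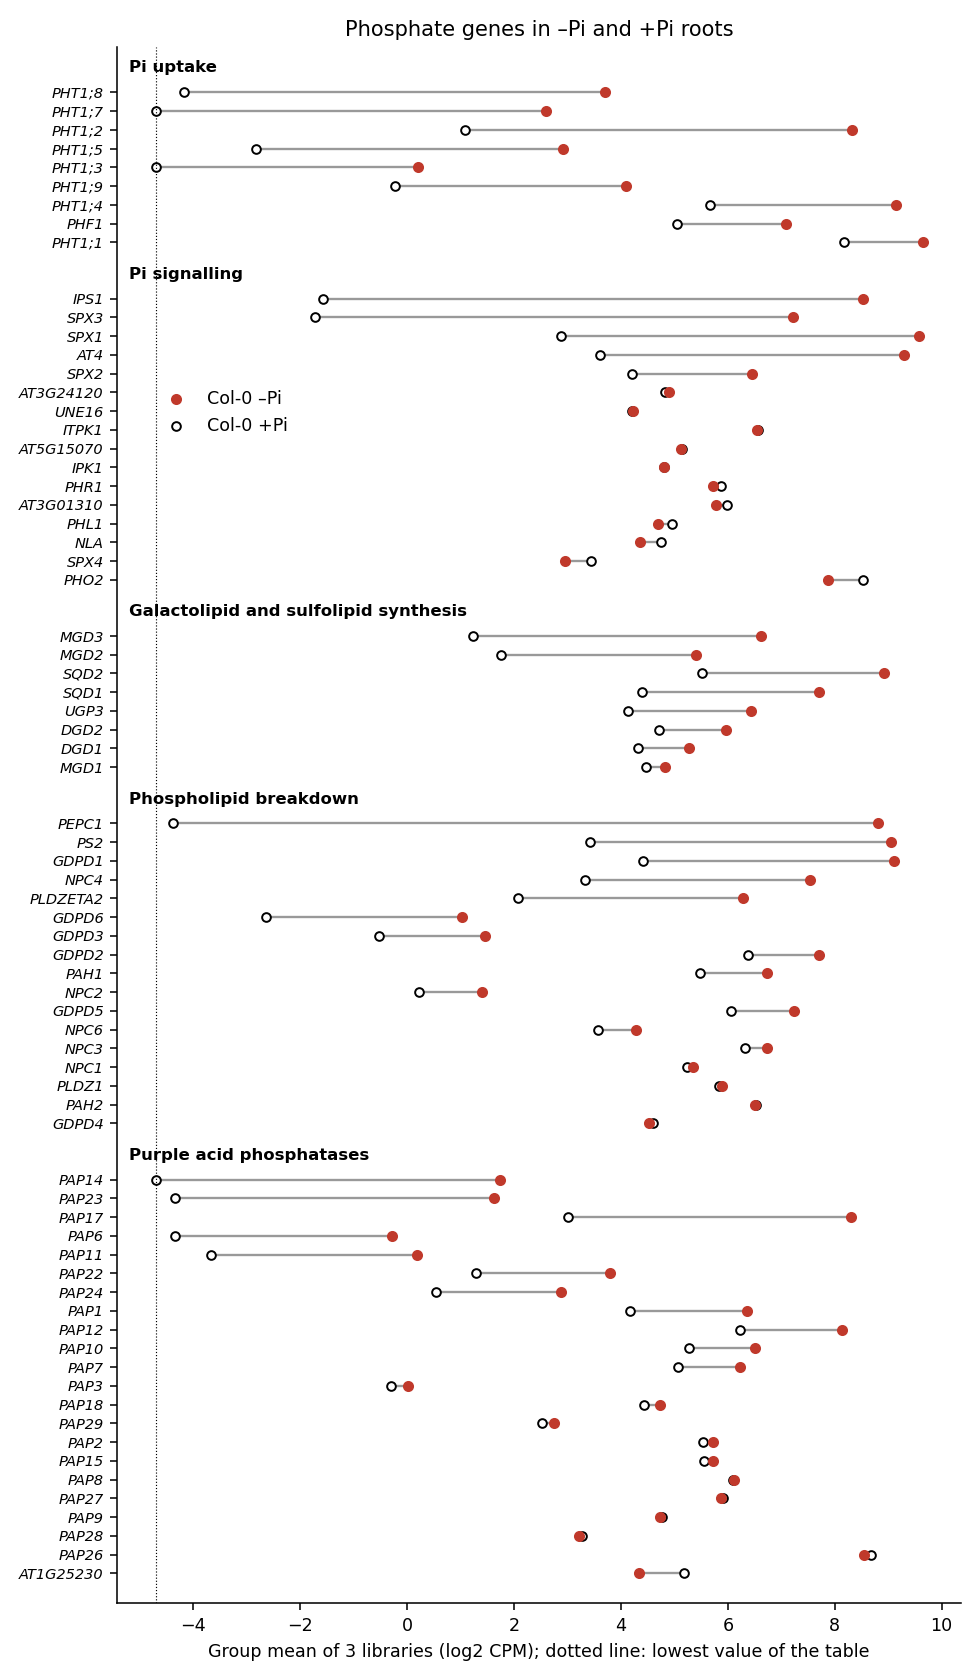
Group means in log2 CPM (x axis) of the genes of 5 phosphate lists, with red points for Col-0 –Pi, open points for Col-0 +Pi and a line joining the 2 means of a gene. All 9 uptake genes sit further right in –Pi roots, *IPS1* and *SPX3* lie above 7 in –Pi roots and below 0 in +Pi roots, and *PHO2* and *SPX4* sit slightly further left.

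The membrane lipid genes rose as a block. All 8 genes of galactolipid and sulfolipid synthesis were higher in –Pi roots at an adjusted p under 0.05 and 6 were DEGs, with a median log2 fold change of 2.80. *MGD3* and *MGD2*, the monogalactosyldiacylglycerol synthases of Pi starvation, had log2 fold changes of 5.39 (SE 0.11, adjusted p = 2.83e-14) and 3.66 (SE 0.10, adjusted p = 1.23e-12), whereas *MGD1*, the housekeeping enzyme of the plastid, had 0.36 (SE 0.07, adjusted p = 0.00294). *MGD3* had 6.62 log2 CPM in –Pi roots, against 1.23 in +Pi roots, and *MGD1* had 4.83 log2 CPM in –Pi roots, against 4.47 in +Pi roots. In the digalactosyl step *DGD2* with 1.26 (SE 0.07) was a DEG and *DGD1* with 0.96 (SE 0.08) fell just short of the threshold. In the sulfolipid branch *SQD2* had 8.92 log2 CPM in –Pi roots, against 5.52 in +Pi roots, a log2 fold change of 3.40 (SE 0.06, adjusted p = 7.73e-15), *SQD1* had a log2 fold change of 3.31 (SE 0.07, adjusted p = 4.00e-14) and *UGP3*, which supplies their sugar nucleotide, had 2.29 (SE 0.08, adjusted p = 8.09e-12).

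Phospholipid breakdown moved with it. Of 17 tested genes 11 were higher DEGs and 0 lower, against 3.83% and 1.89% of all genes, with a median log2 fold change of 1.26. Besides *PEPC1* the highest folds were those of *PS2*, *GDPD1* and *NPC4*. *PS2*, a phosphatase of the same family, had 9.05 log2 CPM in –Pi roots, against 3.41 in +Pi roots and a log2 fold change of 5.64 (SE 0.09, adjusted p = 1.08e-15). *GDPD1*, a glycerophosphodiester phosphodiesterase, had 9.10 log2 CPM in –Pi roots, against 4.42 in +Pi roots and a log2 fold change of 4.68 (SE 0.08, adjusted p = 2.95e-15). *NPC4*, a non-specific phospholipase C, had 7.54 log2 CPM in –Pi roots, against 3.33 in +Pi roots and a log2 fold change of 4.22 (SE 0.09, adjusted p = 5.45e-14). *PLDZETA2*, a phospholipase D, had a log2 fold change of 4.21 (SE 0.11, adjusted p = 5.77e-13), whereas its paralogue *PLDZ1* had 0.06 (SE 0.07, adjusted p = 0.675). Among the phosphatidate phosphatases *PAH1* had 1.26 (SE 0.08) and *PAH2* -0.02 (SE 0.06). Within each of these pairs a single paralogue was a DEG.

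Phosphatases and nucleases that free Pi from organic matter were a mixed group. Of 22 tested purple acid phosphatases 11 were higher DEGs and 0 lower, against 3.83% and 1.89% of all genes. *PAP17* had 8.30 log2 CPM in –Pi roots, against 3.00 in +Pi roots, a log2 fold change of 5.30 (SE 0.12, adjusted p = 6.67e-14), and *PAP12* and *PAP10*, secreted phosphatases of the root surface, had log2 fold changes of 1.90 (SE 0.06, adjusted p = 4.25e-12) and 1.25 (SE 0.08, adjusted p = 3.45e-08). *PAP26*, the main vacuolar form, had 8.55 log2 CPM in –Pi roots, against 8.68 in +Pi roots, a log2 fold change of -0.13 (SE 0.07, adjusted p = 0.234). *PAP23* and *PAP6*, at -4.35 log2 CPM in +Pi roots, had log2 fold changes of 5.97 (SE 0.41) and 4.06 (SE 0.54) that became 1.95 and 0.79 with 1 CPM added, and *PAP14* was listed at the lowest value in +Pi roots. *AT1G25230*, also of this family, fell by 0.85 (SE 0.10, adjusted p = 2.28e-05) on the log2 scale, below the threshold. Of 6 nuclease genes 2 were higher DEGs, against 3.83% of all genes. They were the ribonuclease *RNS1* with 3.88 log2 CPM in –Pi roots, against 1.12 in +Pi roots and a log2 fold change of 2.77 (SE 0.17, adjusted p = 1.21e-08), and the endonuclease *ENDO2* with 1.16 log2 CPM in –Pi roots, against -2.04 in +Pi roots and a log2 fold change of 3.20 (SE 0.41, adjusted p = 5.37e-05) that became 1.38 with 1 CPM added. *RNS2*, a vacuolar ribonuclease, had 0.58 (SE 0.07).

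Genes of phosphoenolpyruvate carboxylase, which makes oxaloacetate and releases Pi, rose together. All 3 tested genes of the plant-type enzyme were higher DEGs. *PPC1* had 10.19 log2 CPM in –Pi roots, against 8.96 in +Pi roots and a log2 fold change of 1.23 (SE 0.07, adjusted p = 7.48e-09). *PPC2* had 1.26 (SE 0.07, adjusted p = 4.68e-09), and *PPC3* had 10.27 log2 CPM in –Pi roots, against 9.21 in +Pi roots and a log2 fold change of 1.06 (SE 0.10, adjusted p = 3.31e-06). The kinases that activate the enzyme, *PPCK1* and *PPCK2*, had log2 fold changes of 2.05 (SE 0.07, adjusted p = 6.81e-12) and 1.85 (SE 0.14, adjusted p = 2.11e-07). *PCK1*, which runs the reverse step, fell by 0.33 (SE 0.06, adjusted p = 0.00132) on the log2 scale. *PFPbeta2*, a subunit of the phosphofructokinase that uses pyrophosphate, had 1.19 (SE 0.09), against 0.13 (SE 0.06) for *PFPbeta1*. *ALDH11A3*, a glyceraldehyde-3-phosphate dehydrogenase that bypasses a Pi-using step, had 0.70 log2 CPM in –Pi roots, against -1.96 in +Pi roots, a log2 fold change of 2.66 (SE 0.59, adjusted p = 0.00632) that became 1.06 with 1 CPM added. In all 7 of 15 tested genes were higher DEGs and 0 lower, against 3.83% and 1.89% of all genes. Counted in reads rather than folds, *PPC1* and *PPC3* were among the 5 DEGs with the largest gains in CPM, with *ANN1*, *SPX1* and *AT4*. *ANN1*, an annexin of root membranes, had 11.57 log2 CPM in –Pi roots, against 10.36 in +Pi roots, a log2 fold change of 1.21 (SE 0.10, adjusted p = 6.68e-07). These gains count reads and are not corrected for gene length.

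Of 11 transcription factors tied to low Pi 4 were higher DEGs, against 3.83% of all genes. They were the repressors *HHO1*, *HHO2* and *HHO3* with log2 fold changes of 1.19 (SE 0.07), 1.36 (SE 0.07) and 1.22 (SE 0.06), and *ERF070* with 4.50 log2 CPM in –Pi roots, against 2.4 in +Pi roots and a log2 fold change of 2.1 (SE 0.12, adjusted p = 6.70e-09). *HRS1*, a relative of them, went the other way with -0.43 (SE 0.05, adjusted p = 3.70e-05). *WRKY75*, described elsewhere as a positive regulator of Pi starvation genes, had 1.77 log2 CPM in –Pi roots, against 2.68 in +Pi roots, a log2 fold change of -0.91 (SE 0.18, adjusted p = 0.00293), while *WRKY45* had 0.89 (SE 0.18, adjusted p = 0.00359). All 3 of these missed the fold threshold.

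**Figure D3:**
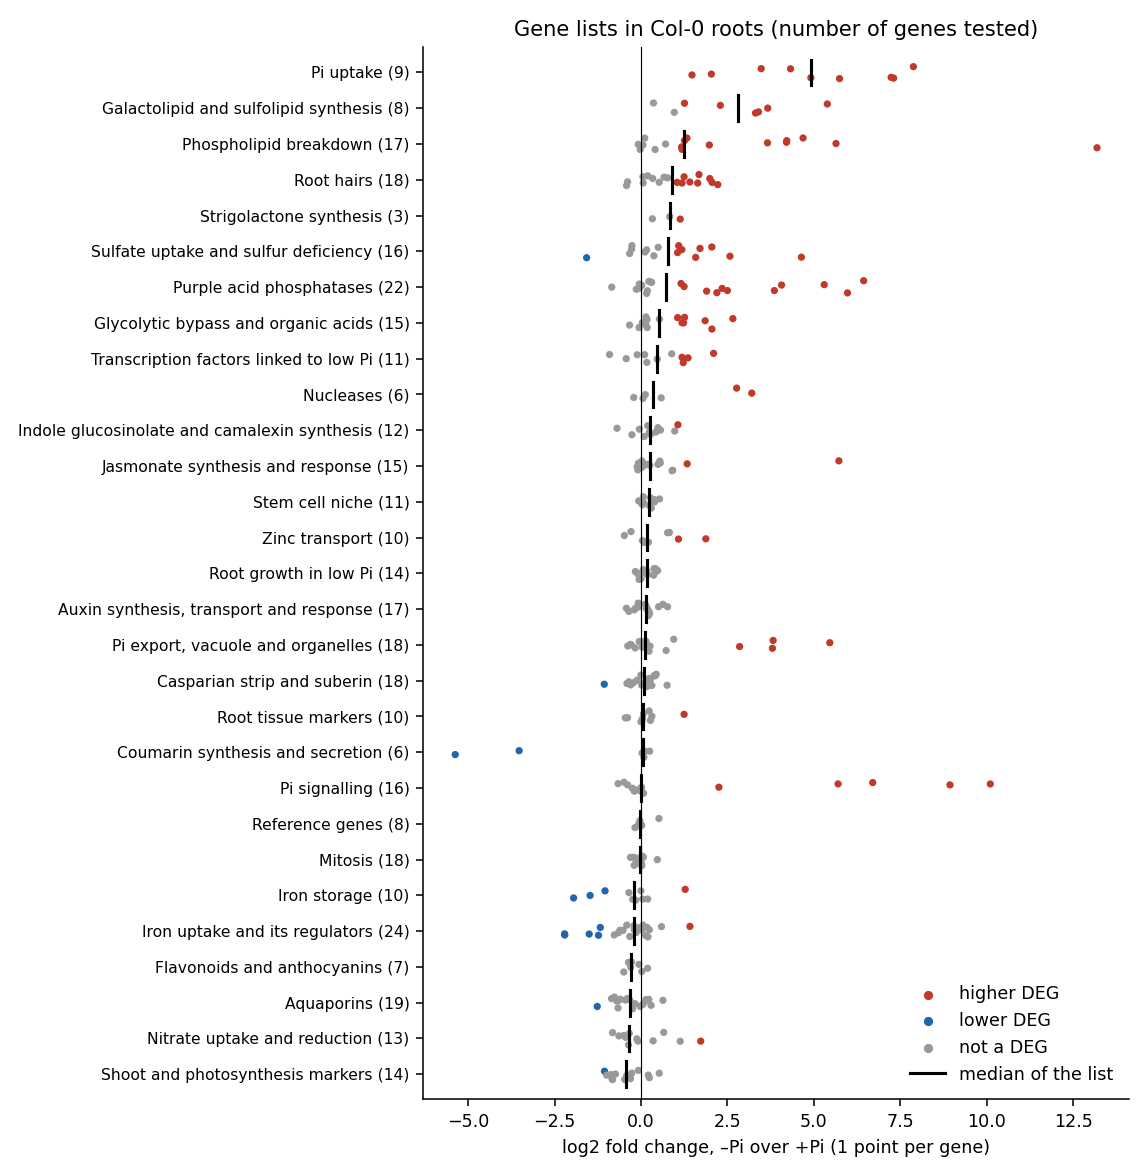
Log2 fold changes of –Pi over +Pi (x axis) of every tested gene in 29 lists, ordered by the median of the list (black bar), with the number of genes tested in brackets. Higher DEGs (red) make up all 9 genes of Pi uptake and 6 of the 8 of galactolipids, 9 of 18 root hair and 8 of 16 sulfur genes, but only 4 of 18 in Pi export, lower DEGs (blue) stand mainly in the iron and coumarin lists, and points of genes listed at the lowest value in +Pi roots, among them *PHT1;7*, *PHT1;3* and *PAP14*, have no interpretable size.

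The promoters of genes that rose held P1BS more often, the more so the larger the fold. Over all 19785 genes on the 5 nuclear chromosomes 6.32% held the motif in the window from 250 bases before to 50 after the start. Among higher DEGs it was 15.8% (120 of 758, 95% Wilson interval 13.4 to 18.6), made up of 33.3% at a log2 fold change of 4 or more (27 of 81, 24.0 to 44.1), 16.7% at 2 to 4 (36 of 216, 12.3 to 22.2) and 12.4% at 1 to 2 (57 of 461, 9.67 to 15.7). Genes higher below the fold threshold held it in 10.8% (173 of 1606). Lower DEGs held it in 5.88% (22 of 374, 3.92 to 8.75) and genes that did not pass the test in 5.51% (836 of 15182). The intervals treat promoters as independent and cover counting error only, and neighbouring genes can share a window. Among the lists with 4 or more higher DEGs, the motif stood in this window in 8 of the 11 of phospholipid breakdown, 7 of the 11 of the purple acid phosphatases, 5 of the 7 of the glycolytic bypass, 3 of the 5 of Pi signalling and 2 of the 4 transcription factors. It stood there in fewer of those of Pi uptake (3 of 9), galactolipids (2 of 6), sulfate (2 of 8), Pi export (0 of 4) and root hairs (0 of 9), so the Pi lists themselves were uneven. Among the 24 iron uptake genes 0 promoters held it, which in a list this short lies near the 6.32% of all genes. The same holds for the 0 of 4 of Pi export and the 0 of 9 of root hairs. A match is a run of letters and not a shown binding site.

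**Figure D4:**
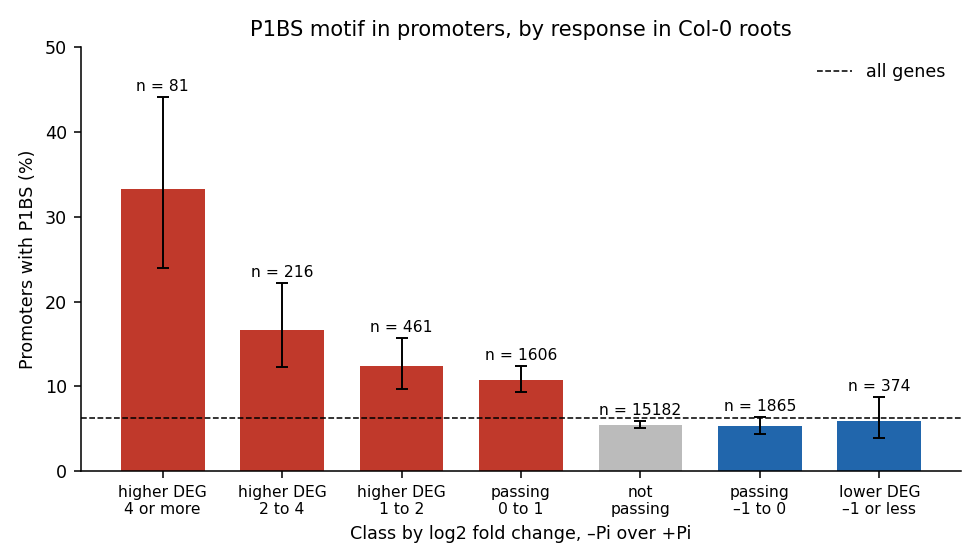
Percentage of promoters with P1BS from 250 bases before to 50 after the start (y axis), in classes of log2 fold change of –Pi over +Pi (x axis), with 95% Wilson intervals as error bars, the number of promoters above each bar and the value of all genes as a dashed line. The share is 33.3% in the class of 4 or more and 12.4% in that of 1 to 2, and the lower DEGs, at 5.88%, lie near the 6.32% of all genes.

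The leading genes of iron uptake fell. Arabidopsis takes up iron by reducing it with FRO2 and importing it with IRT1, under the transcription factor FIT and its partners of the bHLH Ib group. Of 24 tested genes of this system 5 were lower DEGs, against 1.89% of all genes, and 1 was higher. *IRT1* (chr4:10707344-10709015) had 5.10 log2 CPM in –Pi roots, against 7.31 in +Pi roots, a log2 fold change of -2.21 (SE 0.41, adjusted p = 0.00154). *FRO2* had 4.88 log2 CPM in –Pi roots, against 6.38 in +Pi roots, a log2 fold change of -1.5 (SE 0.33, adjusted p = 0.00539). *FIT* had 5.68 log2 CPM in –Pi roots, against 6.20 in +Pi roots, a log2 fold change of -0.52 (SE 0.08, adjusted p = 1.79e-04) below the threshold. Of the bHLH Ib genes *BHLH100* had -1.08 log2 CPM in –Pi roots, against 1.12 in +Pi roots, a log2 fold change of -2.20 (SE 0.38, adjusted p = 8.50e-04) that became -1.11 with 1 CPM added, and *BHLH101* had -1.23 (SE 0.26, adjusted p = 0.00475), or -0.55 with 1 CPM added, whereas *BHLH38* and *BHLH39* had -0.14 (SE 0.21) and 0.02 (SE 0.15) and did not pass the test. *NAS1*, which makes the chelator nicotianamine, had 6.26 log2 CPM in –Pi roots, against 7.44 in +Pi roots, a log2 fold change of -1.18 (SE 0.14, adjusted p = 2.07e-05), while *NAS2* and *NAS4* had 0.18 (SE 0.16) and 0.20 (SE 0.25). *IRT2*, a vesicular relative of IRT1, rose with 3.75 log2 CPM in –Pi roots, against 2.34 in +Pi roots, a log2 fold change of 1.41 (SE 0.17, adjusted p = 2.97e-05). The folds of *IRT1*, *FRO2* and *BHLH100* are known only to within 95% intervals of -3.08 to -1.34, -2.19 to -0.80 and -3.02 to -1.39. The regulators *PYE* and *BTS*, which set the iron response from within the vascular tissue, had 0.03 (SE 0.10) and -0.06 (SE 0.09).

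Coumarins, phenolics secreted to mobilise iron, split by step. *AT3G12900*, annotated as an oxygenase that uses 2-oxoglutarate and iron, had the lowest fold of all DEGs, with -3.86 log2 CPM in –Pi roots, against 1.51 in +Pi roots, a log2 fold change of -5.37 (SE 0.48, adjusted p = 1.01e-06) that became -1.85 with 1 CPM added. *CYP82C4*, a hydroxylase of the same branch, had 2.00 log2 CPM in –Pi roots, against 5.52 in +Pi roots, a log2 fold change of -3.52 (SE 0.42, adjusted p = 2.53e-05). The entry enzyme *F6'H1* had 7.23 log2 CPM in –Pi roots, against 7.11 in +Pi roots, a log2 fold change of 0.12 (SE 0.16, adjusted p = 0.704), and the exporter *ABCG37* had 0.08 (SE 0.09, adjusted p = 0.63). *AT1G28680*, annotated as a putative acyltransferase, had 0.25 (SE 0.07, adjusted p = 0.0286), below the threshold. So *AT3G12900* and *CYP82C4* fell, and no decrease was called for *F6'H1*, *AT1G28680* or *ABCG37*. In iron storage the vacuolar importers *VTL1*, *VTL2* and *VTL5* were lower DEGs with log2 fold changes of -1.95 (SE 0.17, adjusted p = 6.24e-07), -1.47 (SE 0.18, adjusted p = 2.93e-05) and -1.04 (SE 0.15, adjusted p = 2.05e-04), and *VTL1* had 2.76 log2 CPM in –Pi roots, against 4.71 in +Pi roots. The ferritins *FER1*, *FER2*, *FER3* and *FER4*, which store iron in plastids and commonly rise with iron load, had log2 fold changes of -0.24 (SE 0.12), 0.19 (SE 0.09), 0.00 (SE 0.06) and -0.15 (SE 0.08), of which none passed the test. *YSL8*, of a family of metal-nicotianamine transporters, rose with 5.55 log2 CPM in –Pi roots, against 4.27 in +Pi roots, a log2 fold change of 1.28 (SE 0.08, adjusted p = 8.75e-09).

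The genes that set primary root growth in low Pi held no DEG. Over all genes 3.83% were higher and 1.89% lower DEGs, so no DEG in a list this short lies near that share. The same holds for the mitotic and stem cell lists below. The list mixes genes that stop growth, such as *LPR1*, *STOP1* and *ALMT1*, with genes whose loss makes the root shorter in low Pi, such as *PDR2*, *STAR1* and the pair *CNX1* and *CNX2*. The list of 14 had log2 fold changes between -0.16 and 0.48, and 5 members were higher at an adjusted p under 0.05 (limma), against 11.9% of all genes. *LPR1*, a ferroxidase of the root tip, had 3.3 log2 CPM in –Pi roots, against 3.14 in +Pi roots, a log2 fold change of 0.16 (SE 0.11, adjusted p = 0.44), and *PDR2*, which restrains it, had 0.06 (SE 0.09, adjusted p = 0.748). *CRR* had 5.95 log2 CPM in –Pi roots, against 5.96 in +Pi roots, a fold of 0.00 (SE 0.09, adjusted p = 0.999). *STOP1* and its target *ALMT1*, a malate channel, had -0.10 (SE 0.06) and -0.06 (SE 0.12). The 5 that passed were the calnexins *CNX2* with 0.48 (SE 0.06) and *CNX1* with 0.37 (SE 0.08), *CLV2*, a receptor of the CLE14 peptide, with 0.44 (SE 0.10), *HYP1* with 0.42 (SE 0.07) and *STAR1* with 0.38 (SE 0.08). Of 18 mitotic genes 0 were DEGs and 2 passed below the threshold, *CDKB2;2* with 0.47 (SE 0.08) and *CYCB2;3* with -0.30 (SE 0.07). *CYCB1;1*, the common marker of dividing cells, had 4.51 log2 CPM in –Pi roots, against 4.55 in +Pi roots, a log2 fold change of -0.03 (SE 0.07, adjusted p = 0.824). In the stem cell niche 0 of 11 genes were DEGs, and *PLT1*, *PLT2* and *PLT3*, regulators of meristem activity, had 0.39 (SE 0.11, adjusted p = 0.0281), 0.39 (SE 0.08, adjusted p = 0.00318) and 0.54 (SE 0.07, adjusted p = 9.29e-05). These levels are of whole roots, in which the meristem is a part. Whether division or expression changed within the meristem was not tested.

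Many root hair genes rose. Of 18 tested genes 9 were higher DEGs and 0 lower, with a median log2 fold change of 0.91 against -0.02 for all genes. The effectors of hair growth led. *PRP3*, a wall protein, had 7.69 log2 CPM in –Pi roots, against 5.48 in +Pi roots and a log2 fold change of 2.22 (SE 0.14, adjusted p = 2.49e-08). *LRX1*, a leucine-rich repeat extensin, had 6.39 log2 CPM in –Pi roots, against 4.33 in +Pi roots and a log2 fold change of 2.05 (SE 0.17, adjusted p = 4.99e-07). *EXPA18*, an expansin, had 1.99 (SE 0.12, adjusted p = 8.18e-09), and *COW1*, a phosphatidylinositol transfer protein, had 1.68 (SE 0.11, adjusted p = 2.87e-08). Among the regulators *RSL2* was a DEG with 1.19 (SE 0.12, adjusted p = 4.70e-06), while *RSL4* had 0.53 (SE 0.10, adjusted p = 0.00201) and *RHD6* 0.77 (SE 0.13, adjusted p = 5.16e-04) below the threshold. *GL2*, which marks the cells that make no hair, had 3.69 log2 CPM in –Pi roots, against 4.08 in +Pi roots, a log2 fold change of -0.39 (SE 0.11, adjusted p = 0.0343), and *CPC*, which moves into hair cells, had 0.20 (SE 0.12, adjusted p = 0.364). In whole roots more hair cells and more RNA per hair cell cannot be told apart. In the same direction went the extensins, a family picked after its values were seen, of which 14 of 30 were higher DEGs and 1 lower, led by *EXT6* with 2.90 (SE 0.16). The lower one was *PEX3* (AT2G15880) with -2.21 (SE 0.33). Extensin genes are repetitive and alike, so their reads may be shared.

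**Figure D5:**
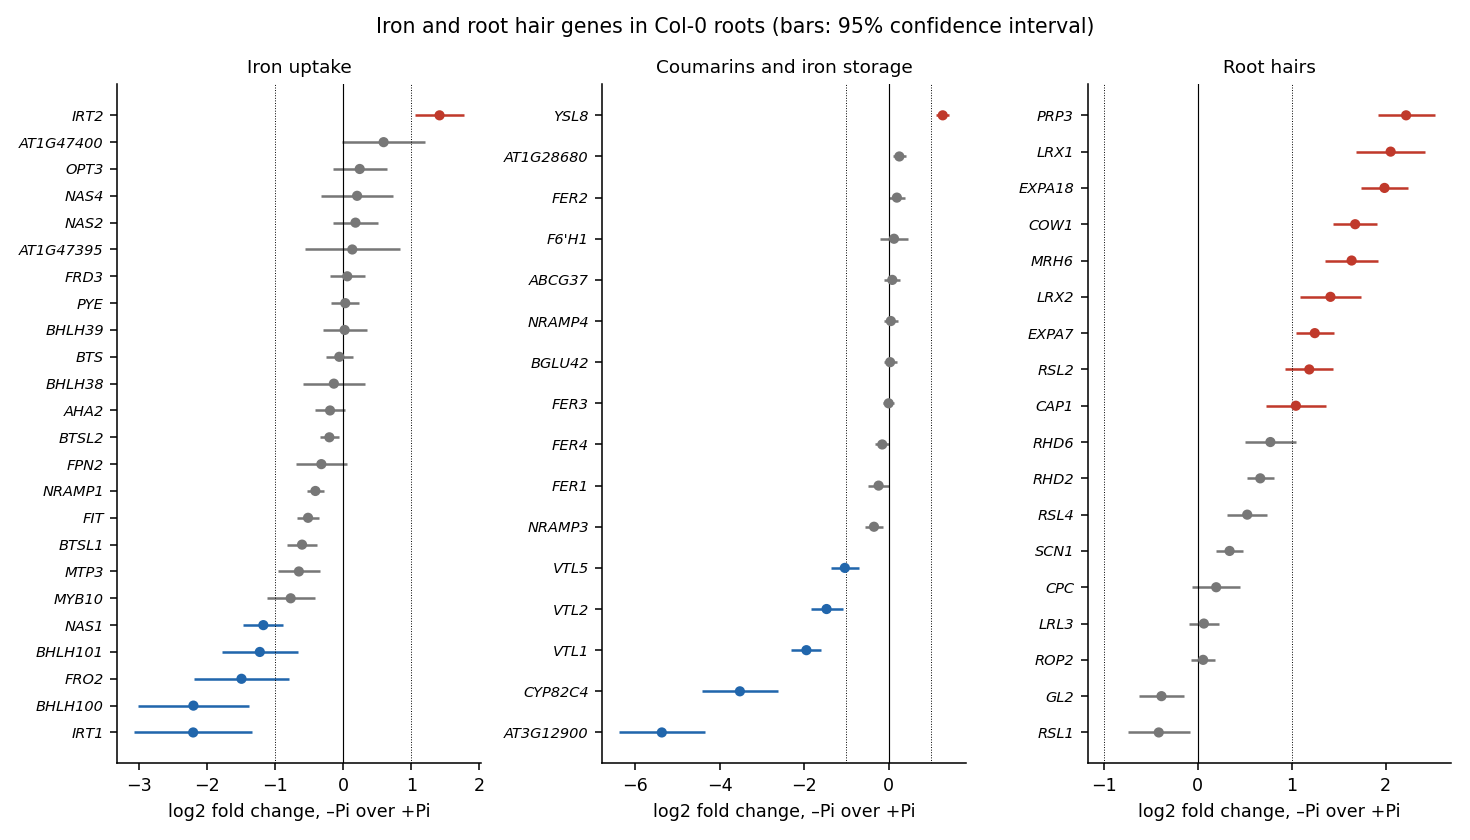
Log2 fold changes of –Pi over +Pi (x axes) with 95% confidence intervals for the iron uptake list, the coumarin and iron storage lists, and the root hair list, with higher DEGs in red, lower DEGs in blue and other genes in grey. *IRT1*, *BHLH100* and *FRO2* have wide intervals below 0, the 4 ferritins lie near 0, and 9 of 18 root hair genes lie at 1 or more.

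Other nutrients responded in different directions. Of 16 sulfur genes 8 were higher DEGs and 1 lower, against 3.83% and 1.89% of all genes. *SULTR1;3*, a sulfate transporter of the phloem, had 4.98 log2 CPM in –Pi roots, against 0.35 in +Pi roots, a log2 fold change of 4.64 (SE 0.30, adjusted p = 2.48e-08). *SULTR1;1*, a root uptake form, had 4.02 log2 CPM in –Pi roots, against 1.45 in +Pi roots, a log2 fold change of 2.57 (SE 0.27, adjusted p = 7.25e-06), whereas *SULTR1;2*, the main uptake form, had 7.93 log2 CPM in –Pi roots, against 8.19 in +Pi roots, a log2 fold change of -0.26 (SE 0.10, adjusted p = 0.125). *SULTR3;4* had 1.71 (SE 0.09, adjusted p = 2.67e-09) and *LSU2*, a marker of sulfur deficiency, 2.05 (SE 0.19, adjusted p = 1.74e-06), while *SULTR3;5* was lower with 4.66 log2 CPM in –Pi roots, against 6.23 in +Pi roots, a log2 fold change of -1.57 (SE 0.11, adjusted p = 6.83e-08). Of 10 zinc genes 2 were higher DEGs, against 3.83% of all genes. They were *ZIP9* with 1.87 (SE 0.29, adjusted p = 3.11e-04) and *HMA2*, a zinc pump of the vasculature, with 1.08 (SE 0.08, adjusted p = 1.56e-07). *ZIP1* and *ZIP5* passed below the threshold with 0.77 (SE 0.08) and 0.82 (SE 0.11), and *HMA4*, a second pump of this kind, with -0.48 (SE 0.07). Of 13 nitrate genes 3 were higher and 6 lower at an adjusted p under 0.05, against 11.9% and 11.3% of all genes. The only DEG was *NRT1.8*, which takes nitrate out of the xylem, with 2.91 log2 CPM in –Pi roots, against 1.18 in +Pi roots and a log2 fold change of 1.73 (SE 0.16, adjusted p = 1.38e-06). Among the 6 lower ones were *NRT2.1* with -0.82 (SE 0.22, adjusted p = 0.0213), *NRT1.5*, which loads the xylem, with -0.64 (SE 0.12, adjusted p = 0.00225) and *NRT1.1* with -0.50 (SE 0.12, adjusted p = 0.00955). The nitrate reductases split, with 0.66 (SE 0.10) for *NIA2* and -0.36 (SE 0.11) for *NIA1*.

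Many water channels were lower, mostly below the fold threshold. Of 19 tested aquaporins 11 were lower at an adjusted p under 0.05, against 11.3% of all genes, 1 was higher and 1 was a DEG. The DEG was *PIP2;3* with 5.33 log2 CPM in –Pi roots, against 6.60 in +Pi roots and a log2 fold change of -1.26 (SE 0.11, adjusted p = 1.33e-06), but it is nearly identical in sequence to *PIP2;2*, with -0.77 (SE 0.10, adjusted p = 3.89e-05), so reads may be shared. *PIP2;1* had 8.98 log2 CPM in –Pi roots, against 9.63 in +Pi roots, a log2 fold change of -0.65 (SE 0.09, adjusted p = 1.39e-04), and the vacuolar channel *TIP2;2* had -0.85 (SE 0.08, adjusted p = 3.34e-06), while *TIP2;1* was higher with 0.63 (SE 0.09, adjusted p = 1.58e-04).

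In the 6 lists of hormone, defence, flavonoid and endodermal genes 4 of 72 tested genes were higher DEGs (5.56%) and 1 was lower (1.39%), against 3.83% and 1.89% of all genes. *AOC1*, an allene oxide cyclase of jasmonate synthesis, had 2.76 log2 CPM in –Pi roots, against -2.96 in +Pi roots, a log2 fold change of 5.72 (SE 0.30, adjusted p = 1.90e-09) that became 2.78 with 1 CPM added, whereas its neighbours *AOC2* and *AOC3*, which are alike in sequence and may share reads with it, had 0.54 (SE 0.15) and 0.90 (SE 0.11) and the entry enzyme *AOS* 0.12 (SE 0.09). Of the 15 jasmonate genes only *AOC1* and *TAT3*, with 1.34 (SE 0.17), were DEGs. *LBO*, an enzyme of strigolactone synthesis, had 1.13 (SE 0.08, adjusted p = 9.93e-08), and the other 2 tested members *MAX4* and *MAX1* 0.83 (SE 0.18) and 0.33 (SE 0.07). Auxin genes held 0 DEGs of 17, with *GH3.3* at 0.77 (SE 0.15), *YUC8* at 0.63 (SE 0.12), *PIN7* at 0.51 (SE 0.06) and *YUC9* at -0.42 (SE 0.10) passing below the threshold. In indole glucosinolate and camalexin synthesis 1 of 12 was a DEG, *CYP71A12* with 1.07 (SE 0.33, adjusted p = 0.0482). Flavonoid genes held 0 DEGs of 7, and *CHS*, *CHI*, *F3H* and *FLS1* were lower at an adjusted p under 0.05, from -0.50 to -0.28. Another 8 listed members, among them *DFR*, *LDOX* and *MYB75*, have no value in the expression table. The Casparian strip and suberin list held 1 DEG of 18, *CASP5* with -1.06 (SE 0.31, adjusted p = 0.0345), or -0.70 with 1 CPM added, and *CYP86B1*, a suberin enzyme, had 0.75 (SE 0.13, adjusted p = 9.43e-04).

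The genes that fell most included transporters. *UMAMIT17* and *UMAMIT20*, neighbours on chromosome 4 in a family of amino acid exporters, were both lower. *UMAMIT17* had 1.48 log2 CPM in –Pi roots, against 5.23 in +Pi roots, a log2 fold change of -3.75 (SE 0.17, adjusted p = 4.41e-10), and *UMAMIT20* had 1.71 log2 CPM in –Pi roots, against 4.88 in +Pi roots, a log2 fold change of -3.16 (SE 0.22, adjusted p = 7.48e-08). *SKOR*, a potassium channel that loads the xylem, had 2.22 log2 CPM in –Pi roots, against 5.05 in +Pi roots, a log2 fold change of -2.83 (SE 0.18, adjusted p = 2.92e-08). *SLAH1*, which supports chloride loading of the xylem, had 1.70 log2 CPM in –Pi roots, against 4.37 in +Pi roots, a log2 fold change of -2.66 (SE 0.19, adjusted p = 1.07e-07). For these transporters of ions, too, the Pi and the potassium of the medium cannot be told apart. *TPPH*, a trehalose phosphate phosphatase, had 1.03 log2 CPM in –Pi roots, against 3.99 in +Pi roots, a log2 fold change of -2.96 (SE 0.19, adjusted p = 2.08e-08). *PSK3*, a precursor of phytosulfokine peptides, had -2.52 (SE 0.15, adjusted p = 1.47e-08). *AT4G39675*, an uncharacterised protein, had -2.04 log2 CPM in –Pi roots, against 3.04 in +Pi roots, a log2 fold change of -5.07 (SE 0.36, adjusted p = 8.52e-08) that became -2.89 with 1 CPM added. *AT5G42610*, of the calcium uniporter family, *AT3G14880*, annotated as like a transcription factor, *AT4G37950*, of a family of rhamnogalacturonate lyases, *AT5G26200*, a mitochondrial carrier, and the uncharacterised *AT3G46880* and *AT5G59080* had folds from -3.01 to -2.45, with levels below 0 log2 CPM in –Pi roots. With 1 CPM added these 6 folds lay between -1.85 and -1.24. In CPM the largest losses were those of *MLP328*, *DIN10*, *AIR1B*, *MLP329* and *BGAL4*. *BGAL4*, a beta-galactosidase, had 5.36 log2 CPM in –Pi roots, against 7.47 in +Pi roots, a log2 fold change of -2.11 (SE 0.11, adjusted p = 3.14e-09), and *DIN10*, of the raffinose synthase family and known as dark-inducible, had 6.72 log2 CPM in –Pi roots, against 8.18 in +Pi roots, a log2 fold change of -1.46 (SE 0.11, adjusted p = 1.48e-07).

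The labelled tissue was checked on marker genes. All 10 root markers were expressed, from 1.01 to 13.1 log2 CPM in –Pi roots and from 0.739 to 13.6 in +Pi roots, and 1 was a DEG, *EXPA7* of hair cells, with 1.25 (SE 0.09). The 14 shoot and photosynthesis markers summed to 119 CPM in –Pi roots and 178 in +Pi roots, with 0 higher and 1 lower DEG, *LHCA1* with -1.05 (SE 0.20), or -0.91 with 1 CPM added, and 5 lower at an adjusted p under 0.05, against 11.3% of all genes. These 14 markers ranged from -4.10 to 4.64 log2 CPM in –Pi roots and from -4.15 to 5.38 in +Pi roots. The small subunit genes *RBCS1B*, *RBCS2B* and *RBCS3B* lay at the low end, between -4.15 and -3.63 log2 CPM in both groups. Others were clearly expressed, with *PSBO1* at 4.64 log2 CPM in –Pi roots, against 5.38 in +Pi roots, and *RCA* at 3.98, against 4.98. The part of shoot or light-exposed tissue in any result was not tested. Of 8 reference genes 0 were DEGs, and *GAPC2* passed below the threshold with 0.52 (SE 0.09).

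The size of the –Pi effect was compared between CRR OE and Col-0 by the interaction F test, which called 551 genes (2.78%) at an adjusted p under 0.05. It was called for 88 of the higher DEGs of Col-0 (11.6%) and 108 of the lower ones (28.9%), and since the Col-0 libraries chose these DEGs the shares carry no test. Of the 5 lists on Pi uptake, signalling, export, galactolipids and phospholipids only *PHT1;4* and *PS2* were called. Outside these 5 lists 1 of 22 purple acid phosphatases was called and 2 of 6 nucleases, *ENDO2* and *RNS1*. *PHT1;4* had 2.83 in CRR OE, against 3.48 in Col-0, a difference of -0.65 (SE 0.11, adjusted p = 0.00611). Among the iron uptake genes *NAS2* alone was called, with -1.28 in CRR OE, against 0.18 in Col-0, a difference of -1.46 (SE 0.22, adjusted p = 0.00232). *IRT1* had -1.45 in CRR OE, against -2.21 in Col-0, a difference of 0.76 (SE 0.58, adjusted p = 0.638), and *AT3G12900* had -3.74 in CRR OE, against -5.37 in Col-0, a difference of 1.63 (SE 0.67, adjusted p = 0.266). Neither of the last pair passed the test, which at these SEs does not show that the lines respond alike.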

How the data were processed

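RNA was sequenced from roots of pooled Col-0 and CRR OE seedlings, 3 libraries per line and medium. The authors trimmed reads with cutadapt 1.8, removed ribosomal reads, aligned the rest to TAIR10 with STAR 2.5.3a and counted genes with HTSeq 0.9.1. The labels also list RSEM 1.2.31 and R 3.5.3, and the strand setting of the counting is not given in the sources used here. The authors kept genes that reached 1 CPM in a library, normalised them by TMM and deposited log2 CPM values from edgeR 3.24.3, as means of 3 libraries. Depth per library is not in the tables used here, so levels carry no counting interval and each SE stands for the spread between libraries. The deposited tables also hold fold changes, p-values and adjusted p of the authors' limma model over all 12 libraries, and a deposited score, the F statistic of the genotype by phosphate interaction. The authors' fold changes and adjusted p were not used, and the authors' p-values were used only for the spread and the calls.

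Fold changes were recomputed as differences of group means in Python 3.11.15 with pandas 2.3.3, numpy 2.4.6 and scipy 1.17.1. The SE was recovered from the interaction F with 15.04 total degrees of freedom, 8 residual and 7.04 prior, and p-values were adjusted over the 4 pairwise contrasts together. The recovery was tested on data simulated with limma 3.58.1 in R 4.3.3. Alternatives changed the fold or p threshold, the adjustment, the value added before the logarithm, a filter at 1 log2 CPM, a centring on the median and the promoter window. Named genes were the 15 DEGs at each end by fold with at least 1 log2 CPM in a group, up to 4 DEGs per list, the members past the test in lists with 2 DEGs or fewer, and the 5 largest gains and losses in CPM. The members and lists were chosen with earlier results of these data known, and further list members and the families were named after their values were seen. The 29 lists hold 417 genes, of which 41 have no value in the table. Gene names come from the table for 10428 genes and from RefSeq for 9373. Not every stretch that matches miR399 is reported here.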

Additional observations from a re-analysis of the deposited data

Results flagged for a closer look

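The –Pi effect differed between CRR OE and Col-0 for 22 of the 157 named genes, by the interaction F test at an adjusted p under 0.05 (limma, 3 libraries per group). Differences are CRR OE minus Col-0 on the log2 scale. All of these genes, at the 2 ends, in the lists or by CPM, were named for their fold, adjusted p or change in CPM in Col-0. The Col-0 fold also enters the difference with a minus sign. The naming therefore favours differences opposite in sign to the Col-0 effect, and the signs shared below are no test.

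Among genes higher in –Pi roots of Col-0, *ENDO2* had -0.29 in CRR OE, against 3.20 in Col-0, a difference of -3.49 (SE 0.58). *RNS1* had 1.45 in CRR OE, against 2.77 in Col-0, a difference of -1.32. Both nucleases therefore had a smaller effect in CRR OE. The same sign held for *NRT1.8* with -1.04, *GH3.3* with -0.86, *LBO* with -0.75, *AOC3* with -0.71, *HYP1* with -0.49, *PS2* with -0.48, *PLT3* with -0.48 and *MAX1* with -0.40.

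The nitrate reductases differed in the same direction. *NIA1* had -1.88 in CRR OE, against -0.36 in Col-0, a difference of -1.52, and *NIA2* had -0.19 in CRR OE, against 0.66 in Col-0, a difference of -0.85. The aquaporin *TIP2;2* had -1.33 in CRR OE, against -0.85 in Col-0, a difference of -0.48.

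Of the genes lower in Col-0 9 had a positive difference. *UMAMIT17* had -1.26 in CRR OE, against -3.75 in Col-0, a difference of 2.49, and its neighbour *UMAMIT20* had -0.81 in CRR OE, against -3.16 in Col-0, a difference of 2.36. *BGAL4* had -0.72 in CRR OE, against -2.11 in Col-0, a difference of 1.39. The differences were 2.82 for *AT5G59080*, 2.56 for *AT4G37950*, 1.88 for *AT3G46880*, 1.06 for *DIN10*, 1.01 for *MLP329* and 0.52 for *CYP79B3*.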

How the results depend on the processing

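The counts of DEGs moved with the fold threshold. Apart from the centring, the settings cannot change the sign of a fold, so its direction was not tested by them. With no fold threshold 2364 genes were higher and 2240 lower, and with a fold threshold of 1.5 on the log2 scale the counts were 485 higher and 138 lower. Of the 376 list genes 85 were higher and 14 lower, and these settings gave 135 higher and 60 lower without a threshold, and 57 higher and 6 lower at 1.5. Adding 1 CPM before the logarithm, with the p-values kept, left 180 lower genes and 543 higher ones. This setting only shrinks folds, so all of them are among the 374 and 758 DEGs by construction. Adjustment over this contrast alone gave 770 higher and 385 lower, an adjusted p under 0.01 gave 713 and 337, a filter at 1 log2 CPM 614 and 290, and centring on the median of all genes, a shift of -0.02, 780 and 355. Of the 157 named genes 3 lost their call with 1 CPM added, 21 at 1.5 and 2 at an adjusted p under 0.01. The interaction had 208 genes at an adjusted p under 0.01, against 551 at 0.05. The share of higher DEGs with P1BS was 13.2% in the 250 bases before the start alone, against 5.54% of all genes, and 31.1% in 1000 bases, against 20.5%, a window chosen after seeing the data. No paired analysis was possible because the expression columns are group means that carry no replicate numbers, and for the same reason no library could be left out in turn and no single library could be checked. Low genes are known less precisely, with a median SE of 0.35 in the 785 genes averaging under 0 log2 CPM. Of these 152 were higher DEGs (19.4%) and 70 lower (8.92%), against 3.83% and 1.89% of all genes. Genes were kept if they reached 1 CPM in a library, so a gene this low may have been kept for its level in a single group. These shares therefore carry no test, and the part of the filter in them was not tested.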

Other observations

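Families were read from the gene descriptions of the table, and those given here were picked after their values were seen, so their counts are descriptions. Of 11 germin-like proteins, wall enzymes related to oxalate oxidase, 6 were higher DEGs and 0 lower, against 3.83% of all genes. They include *AT5G39110*, *AT5G39120*, *AT5G39150* and *GLP5A*, which stand in a row on chromosome 5, are alike in sequence and lay below 1 log2 CPM in both groups. With 1 CPM added before the logarithm these 4 were below the fold threshold, which left 2 higher DEGs in the family. *AT5G39120* had 0.11 log2 CPM in –Pi roots, against -2.84 in +Pi roots. Of 13 xyloglucan endotransglucosylases, which remodel walls, 5 were higher DEGs, and *XTH26* had 4.75 log2 CPM in –Pi roots, against -1.72 in +Pi roots, a log2 fold change of 6.47 (SE 0.32). Among arabinogalactan proteins 1 of 31 was higher (3.23%), near the 3.83% of all genes, and 3 were lower (9.68%), against 1.89%. The higher one was *FLA6* with 4.07 (SE 0.29). Of 8 SWEET sugar transporters 3 were higher and 2 lower, or 2 and 0 with 1 CPM added. *SWEET14* had 4.05 log2 CPM in –Pi roots, against 0.77 in +Pi roots, and *SWEET13* was higher by 1.91 (SE 0.11) on the log2 scale. Enzymes of trehalose phosphate metabolism leaned down, with 9 of 13 lower at an adjusted p under 0.05 (limma), against 11.3% of all genes, 2 of them DEGs, and a median of -0.84. Of 37 photosystem and chlorophyll-binding proteins 18 were lower at that threshold and 6 were lower DEGs, against 1.89% of all genes, with a median of -0.61. With 1 CPM added 2 of these DEGs were left. Of 182 cytosolic ribosomal proteins 0 were DEGs, and at an adjusted p under 0.05 (limma) 2 were higher and 1 lower, with a median of -0.05. Of 16 laccases 0 were DEGs, and 4 were higher and 6 lower at that threshold, against 11.9% and 11.3% of all genes.

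Some DEGs lay side by side. Of 19795 neighbouring pairs of tested genes 81 were higher on both sides, 19 lower on both sides and 21 in opposite directions. In all 148 higher DEGs (19.5%) had a neighbour that was also higher, against 7.47% of all tested genes with a higher neighbour, and 38 lower DEGs (10.2%) had a lower neighbour, against 3.73%. There were 10 rows of 3 or more higher DEGs, at most 4 genes long. Besides the PHT1 row, which ends in *TOPP7*, a protein phosphatase with 1.07 (SE 0.09), *SPX3* lies between *ZAT4*, a zinc finger factor with 1.47 (SE 0.21), and *AT2G45135*. *SQD1* lies between *ZIP9* and *GRXC6*, a glutaredoxin with 1.13 (SE 0.16). *IAN2*, *IAN3* and *IAN4*, GTPases related to immune proteins, follow *AT1G33870*, and *IAN3* had 2.1 log2 CPM in –Pi roots, against -3.35 in +Pi roots. *IAN2* and *IAN4* had only -0.30 and -0.29 log2 CPM in –Pi roots, and *IAN4* was listed at the lowest value in +Pi roots. With 1 CPM added their log2 fold changes were 0.67 and 0.81, below the fold threshold. How much shared reads or overlapping transcripts add to such rows was not tested.

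Among 225 genes typed as lncRNA 9 were higher DEGs (4%) and 2 lower (0.889%), near the 3.83% and 1.89% of all genes. Among 93 typed as ncRNA 5 were higher (5.38%) and 6 lower (6.45%). *AT3G57157* had 6.29 log2 CPM in –Pi roots, against 3.1 in +Pi roots, a log2 fold change of 3.19 (SE 0.14). *AT1G10682* had 6.67 log2 CPM in –Pi roots, against 7.78 in +Pi roots, a log2 fold change of -1.11 (SE 0.09). *AT4G31248* had 3.31 log2 CPM in –Pi roots, against 0.68 in +Pi roots, a log2 fold change of 2.63 (SE 0.14), but overlaps the higher gene *AT4G31250*, with 1.35 (SE 0.11). The 2 genes of the signal recognition particle RNA were both lower DEGs, with -1.22 (SE 0.16) and -1.72 (SE 0.26). The second lay at -1.19 log2 CPM in –Pi roots, against 0.53 in +Pi roots, and its fold became -0.77 with 1 CPM added.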
